A study of Mus musculus with 6 samples.

Results

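Type 2 and Th9 cytokines, with the factors and markers of the cells that make them, are 9 of the 56748 genes in the count table: Il4, Il13, Il5, Il9, Gata3, Pparg, Nfil3, Il17rb and Areg. They were chosen from the table for their roles, with their values in these same libraries known, so every difference between the groups given for them is a description with no test. The series holds 6 bulk RNA-seq libraries of mouse CD4 T cells, 3 that received a scrambled antisense oligonucleotide (ASO) and 3 that received an ASO against Pgam, the glycolytic enzyme phosphoglycerate mutase. The study asks how this enzyme bears on the differentiation of regulatory T cells (Treg cells). All 6 libraries came from C57BL/6 mice of genotype WT aged 6 to 10 weeks, whose naive CD4 cells were taken from spleen and lymph nodes by negative selection. The cells were stimulated in culture with plate-bound anti-CD3 and soluble anti-CD28 in both groups, and they were not sorted afterwards. Culture lasted 3 days under Treg conditions with IL-2, TGF-β, anti-IL-4 and anti-IFNγ and the ASO at 10 μM in both groups. The antibody against IL-4 was thus present in every culture in which Il4 RNA was measured.

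T helper 2 cells make IL-4, IL-5 and IL-13, whose genes lie close together in a conserved cluster, and the transcription factor GATA3 drives them. Th9 cells make IL-9 when naive cells meet TGF-β together with IL-4, and the nuclear receptor PPARγ is expressed in both of these cell types. IL-4 signalling through STAT6 counters the induction of Foxp3, the defining factor of Treg cells.

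Total counts per library ran from 15860476 to 18032805. Pgam1, the form of the targeted enzyme found in most tissues, had 599.6, 478 and 707 CPM (counts per 1000000 counts of the library) in libraries 1, 2 and 3 labelled scramble. In the libraries labelled Pgam ASO it had 658, 661 and 707 CPM, and the groups overlapped (log2 fold change 0.18 ± 0.13 SE, edgeR adjusted p 0.331). Pgam2, the muscle form, had 5.23, 6.75 and 2.85 CPM with scramble and 2.98, 2.69 and 2.60 CPM with Pgam ASO (log2 fold change -0.84 ± 0.31 SE, edgeR adjusted p 0.0854). In the annotation, 37.1% of the 31-base stretches of Pgam1 transcripts also occur in the pseudogene Pgam1-ps2, which had 749 counts over all 6 libraries. The RNA of the target therefore does not mark the groups, and they are named here by their labels. RNA says nothing of the level of the protein, which the study measured separately by flow cytometry. Foxp3 had 282, 371 and 222 CPM in the libraries labelled scramble and 89.7, 109 and 131 CPM in those labelled Pgam ASO, with no overlap (log2 fold change -1.41 ± 0.20 SE, edgeR adjusted p 0.00567). In Foxp3, 26.4% of 31-base stretches also occur in other genes, mostly Flicr, which had 720 counts over all libraries. In bulk RNA, fewer cells of a type and less RNA per cell cannot be told apart.

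Il4 (ENSMUSG00000000869), which encodes the cytokine that defines the Th2 lineage, had 2.08, 1.08 and 1.74 CPM in libraries 1, 2 and 3 labelled scramble and 12.7, 12.1 and 7.46 CPM in libraries 1, 2 and 3 labelled Pgam ASO. The lowest Pgam ASO library, replicate 3, stood above the highest scramble library, replicate 1. The log2 fold change was 2.72 ± 0.30 SE (n = 3 per group), from a mean of 1.63 ± 0.509 CPM (SD) to 10.8 ± 2.89 CPM (SD).

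Il13 (ENSMUSG00000020383), the type 2 cytokine that acts on epithelium and smooth muscle, had 8.83, 3.29 and 9.91 CPM with the scramble label and 152, 90.2 and 55.8 CPM with the Pgam ASO label. Its libraries varied widely within each label, with a span of 3.01-fold among the scramble libraries and 2.73-fold among the Pgam ASO libraries. The groups were nonetheless apart, at a log2 fold change of 3.77 ± 0.55 SE. Over all tested genes the median span between the highest and the lowest library was 1.26-fold within the scramble label and 1.25-fold within the Pgam ASO label.

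Il5 (ENSMUSG00000036117), which encodes the growth factor of eosinophils, was close to the detection limit in the scramble libraries, at 0.506, 0.432 and 0.558 CPM from 9, 8 and 9 counts. The Pgam ASO libraries held 247, 151 and 105 counts, or 15.3, 9.69 and 6.21 CPM. Its log2 fold change of 4.37 ± 0.39 SE is the highest of the 8 fitted among the 9 genes, and it rests on a scramble level of under 10 counts a library. In the annotation, 23.8% of the 31-base stretches of Il5 transcripts also occur on the antisense transcript Gm12214, which had 0 counts in all 6 libraries.

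Il9 (ENSMUSG00000021538), the product that names Th9 cells, had 5.68, 1.73 and 7.75 CPM in the scramble libraries and 32.2, 26.6 and 19.2 CPM in the Pgam ASO libraries. Scramble replicate 2 stood 4.48-fold below scramble replicate 3, and the Pgam ASO libraries were closer to each other, with a span of 1.68-fold. The log2 fold change was 2.37 ± 0.47 SE.

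**Figure D1:**
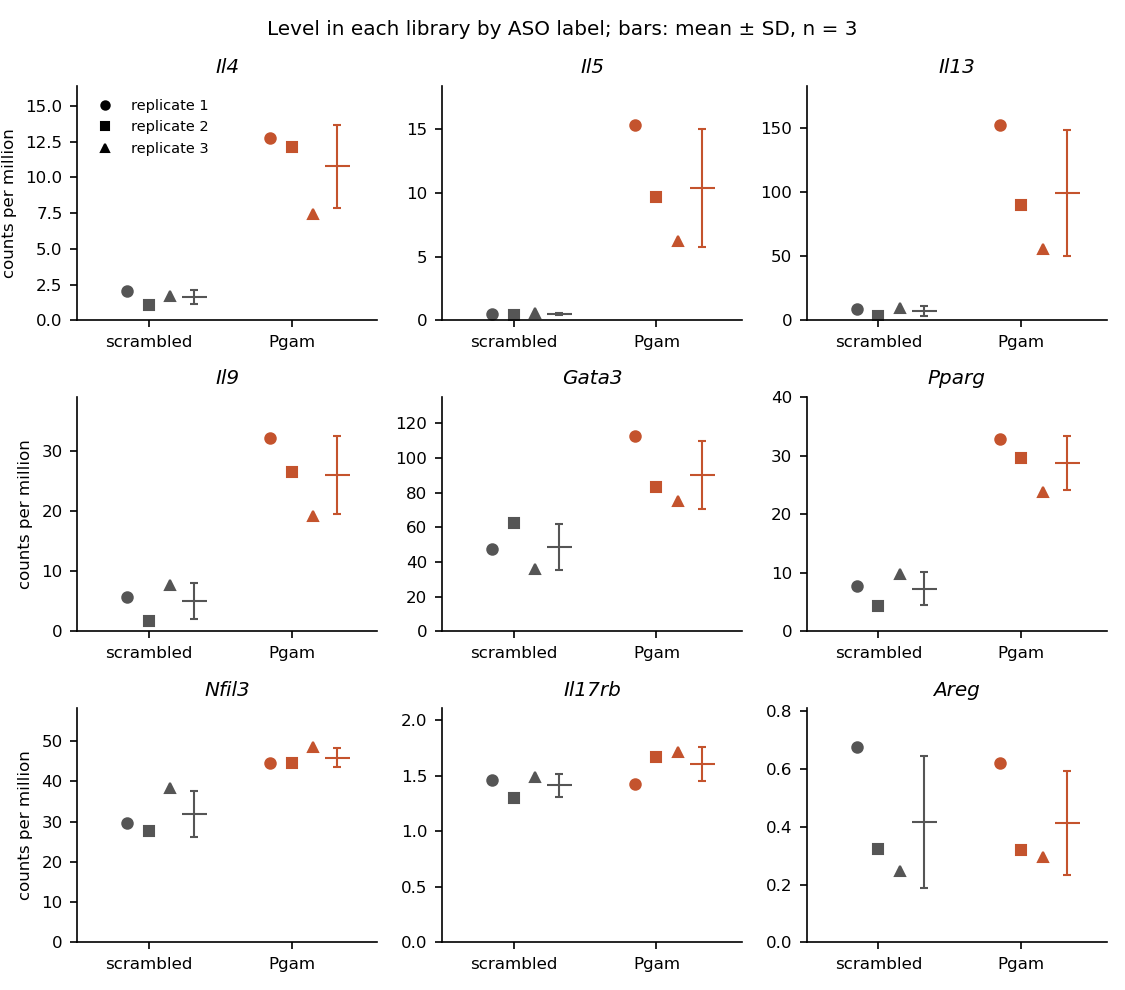
Level in CPM of the 9 genes in each library by ASO label, with symbols for the replicates and mean ± SD (n = 3) beside them. For Il4, Il13, Il5, Il9, Gata3, Pparg and Nfil3 every library labelled Pgam ASO lies above every library labelled scramble, and for Il17rb and Areg the labels overlap.

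The promoters of these 4 cytokine genes are printed because all of these genes had higher levels under the same label and the control of their promoters is well studied. RefSeq promoters were found for all 9 genes. Each line is the 250 bases before the start of transcription from RefSeq (build GRCm38.p6), 5′ to 3′ on the strand of the gene, at chr11:53618666-53618915 (minus strand), chr11:53634703-53634952 (minus strand), chr11:53720544-53720793 (plus strand) and chr13:56482258-56482507 (minus strand). For Il4 the table holds another, inner start, and the outer one is shown. Capitals mark matches, on either strand, to GATAA (letters that GATA factors bind), GGAAA (NFAT), TGANTCA (AP-1), TTCNNNGAA (STAT) or TTANGTAA (NFIL3), so that GGAAA on the other strand reads TTTCC.
Il4: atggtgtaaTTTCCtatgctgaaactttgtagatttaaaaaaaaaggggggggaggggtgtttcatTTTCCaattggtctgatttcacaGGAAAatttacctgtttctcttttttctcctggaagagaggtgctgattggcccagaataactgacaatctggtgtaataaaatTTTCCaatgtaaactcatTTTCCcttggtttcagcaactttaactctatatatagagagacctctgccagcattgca
Il13: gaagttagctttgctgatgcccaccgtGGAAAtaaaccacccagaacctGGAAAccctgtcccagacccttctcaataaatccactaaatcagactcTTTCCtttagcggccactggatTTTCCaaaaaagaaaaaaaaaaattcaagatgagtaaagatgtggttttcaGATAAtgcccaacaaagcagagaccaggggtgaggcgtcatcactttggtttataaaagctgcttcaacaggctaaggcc
Il5: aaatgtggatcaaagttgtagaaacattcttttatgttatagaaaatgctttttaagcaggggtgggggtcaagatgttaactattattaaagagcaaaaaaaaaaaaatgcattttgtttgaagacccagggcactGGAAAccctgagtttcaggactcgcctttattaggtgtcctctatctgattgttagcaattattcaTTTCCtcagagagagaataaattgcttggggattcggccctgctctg
Il9: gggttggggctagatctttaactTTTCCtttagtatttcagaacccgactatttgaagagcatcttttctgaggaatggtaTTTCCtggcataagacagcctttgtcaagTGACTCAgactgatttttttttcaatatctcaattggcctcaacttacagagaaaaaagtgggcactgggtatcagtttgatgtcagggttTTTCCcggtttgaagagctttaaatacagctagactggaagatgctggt
GGAAA occurred 5 times in the Il4 window, 4 times in that of Il13, 2 times in that of Il5 and 3 times in that of Il9. These letters are common: 55.6% of the 32851 mouse promoter windows of the same length hold them at least once. GATAA was found 1 time in the Il13 window and not in the other 3, against 22.6% of all windows. TGANTCA was found 1 time in the Il9 window and not in the other 3, against 6.75% of all windows. TTCNNNGAA and TTANGTAA, held by 7.02% and 2.06% of all windows, were in none of these 4. No marked match overlaps another in these windows, and a match of letters is a description that says nothing of binding.

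Set per transcript length, 3 of the 4 cytokine genes made up different shares of their sum under the labels, beside the difference in the sum itself. TPM, a scale of transcripts per 1000000 that corrects for gene length, computed with the longest coding transcript of each gene, summed to 50.5, 19.3 and 57.8 in the scramble libraries. The same sum was 479, 335 and 225 TPM in the libraries labelled Pgam ASO. Il9 made up 48.9%, 40.2% and 55.8% of the sum with scramble and 27.6%, 32.9% and 36.3% with Pgam ASO. Il13 was the other large share, at 33.8%, 34.1% and 31.8% with scramble and 58.1%, 49.6% and 47.0% with Pgam ASO. Neither of these shares overlapped between the labels. By full transcript length, Il9 led the sum in the scramble libraries and Il13 led it in the Pgam ASO libraries. Lengths were not corrected for fragment length, and the transcript of Il9 has 536 bases against 1205 for Il13. Which gene led under such a correction was not tested. The TPM of Il13 per TPM of Il4 was 2.13, 1.53 and 2.87 with scramble and 6.0, 3.73 and 3.76 with Pgam ASO. The share of Il4 overlapped, at 15.9%, 22.2% and 11.1% with scramble and 9.68%, 13.3% and 12.5% with Pgam ASO. Il5 had the smallest share in every library, 1.52%, 3.50% and 1.40% with scramble and 4.59%, 4.18% and 4.11% with Pgam ASO, without overlap. The nearest scramble share, 3.50% in replicate 2, rests on 8 counts, so the separation of this share is uncertain. The TPM of Il13 per TPM of Il5 overlapped, at 22.3, 9.73 and 22.7 with scramble and 12.7, 11.9 and 11.5 with Pgam ASO, and the scramble values rest on the few counts of Il5.

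**Figure D2:**
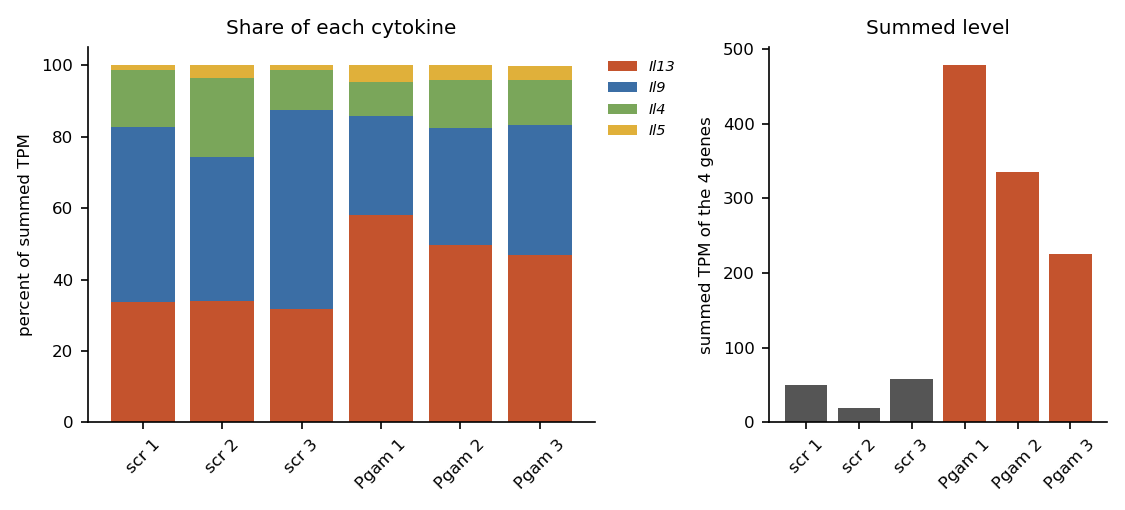
Left, the share of Il13, Il9, Il4 and Il5 in their summed TPM in each library, in percent. Right, that sum, which was 19.3 to 57.8 in the libraries labelled scramble and 225 to 479 in those labelled Pgam ASO.

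Among the transcription factors, Gata3 (ENSMUSG00000015619), the master regulator of Th2 cells that Treg cells also express, had 47.5, 62.2 and 35.8 CPM with scramble and 112, 82.9 and 75.2 CPM with Pgam ASO. The labels did not overlap, but scramble replicate 2 at 62.2 CPM came near Pgam ASO replicate 3 at 75.2 CPM. Its log2 fold change was 0.89 ± 0.22 SE, smaller than those of the 4 cytokines.

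Pparg (ENSMUSG00000000440), the lipid-sensing nuclear receptor of Th2 and Th9 cells, had 7.82, 4.27 and 9.79 CPM with scramble and 32.9, 29.6 and 23.9 CPM with Pgam ASO. It had the largest difference of the 3 factors (log2 fold change 1.99 ± 0.26 SE). Its Pgam ASO libraries spanned 1.38-fold, less than those of Il4, Il13, Il5, Il9 and Gata3.

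Nfil3 (ENSMUSG00000056749), a basic leucine zipper repressor that is induced by IL-4 and tied to the circadian clock, had 29.5, 27.8 and 38.4 CPM with scramble and 44.5, 44.6 and 48.5 CPM with Pgam ASO. The labels were apart by a small margin, with scramble replicate 3 nearest to the Pgam ASO libraries. The log2 fold change was 0.53 ± 0.13 SE.

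Il17rb (ENSMUSG00000015966), the subunit of the IL-25 receptor that marks type 2 cells, had 1.46, 1.30 and 1.49 CPM with scramble and 1.43, 1.67 and 1.72 CPM with Pgam ASO. These overlapping values rest on 23 to 29 counts a library, and the log2 fold change was 0.18 ± 0.30 SE. Areg (ENSMUSG00000029378), which encodes amphiregulin, an EGF receptor ligand made by tissue Treg and type 2 cells, had 0.675, 0.324 and 0.248 CPM with scramble and 0.621, 0.321 and 0.296 CPM with Pgam ASO. With 12, 6 and 4 counts against 10, 5 and 5 it overlapped between the labels, did not pass the filter on low counts and has no fitted fold change.

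Of the 9 genes, 8 passed the filter. For 7 of the 9, every library labelled Pgam ASO lay above every library labelled scramble, where 19.6% of the 14936 tested genes do so. Since these values were known when the genes were chosen, nothing is read from that count. A log2 fold change of at least 1 was seen for 5 of them (Il4, Il13, Il5, Il9 and Pparg), and for 295 tested genes in all (1.98%).

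Ordered by level per length, the 9 genes ran differently under the labels. With scramble, the mean TPM (± SD, n = 3) was 36.4 ± 5.15 for Nfil3, 35.2 ± 10.8 for Gata3, 21.5 ± 12.5 for Il9, 14 ± 6.46 for Il13 and 7.88 ± 2.79 for Pparg. Below them stood Il4 at 6.23 ± 1.87 TPM, Il17rb at 1.56 ± 0.0718, Areg at 0.796 ± 0.440 and Il5 at 0.750 ± 0.0686. Nfil3 and Gata3 did not differ from each other beyond the larger SD, nor did Il9 and Il13, Il13 and Pparg, Pparg and Il4, or Areg and Il5. With Pgam ASO, Il13 came first at 183 ± 87.6 TPM, then Il9 at 108 ± 25.4, Gata3 at 62.6 ± 12.7, Nfil3 at 50.6 ± 3.48 and Il4 at 39.7 ± 10. Pparg followed at 30.2 ± 4.27 TPM, then Il5 at 15.1 ± 6.45, Il17rb at 1.71 ± 0.190 and Areg at 0.756 ± 0.321. Here Il13 and Il9, Gata3 and Nfil3, and Il4 and Pparg were within the larger SD of each other. With mean in place of longest transcript length, the neighbours within the larger SD were Il9 and Il13, Il13 and Pparg, and Areg and Il5 with scramble. With Pgam ASO they were Il13 and Il9, Il9 and Gata3 (80 and 76.7 TPM), Nfil3 and Pparg, and Pparg and Il4. Gata3 then stood above Nfil3 beyond that spread under both labels (43.1 and 26.9 TPM with scramble, 76.7 and 37.5 TPM with Pgam ASO), and so did Pparg above Il4 with scramble (8.80 and 4.85 TPM). By TPM, Il13 stood above 67.0% of detected genes with scramble and above 96.3% with Pgam ASO, and Il5 above 36.6% and 68.1%.

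**Figure D3:**
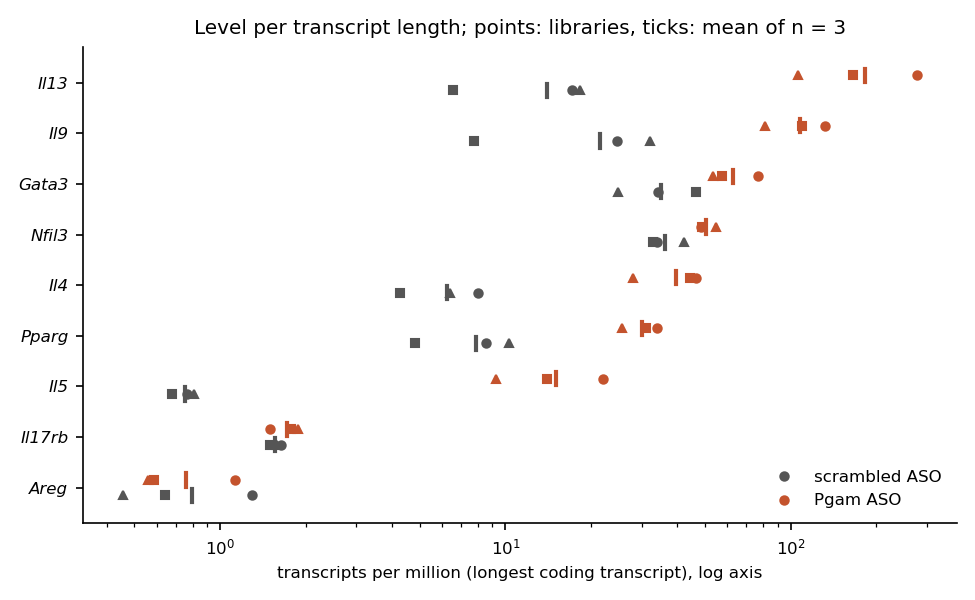
Level of the 9 genes per transcript length, in TPM on a log axis, with a symbol per library and a tick at the mean of each label (n = 3). The mean of Il13 is 14 with scramble and 183 with Pgam ASO and that of Il5 is 0.750 and 15.1, while Il17rb and Areg lie below 2.

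The libraries of one label also differed among themselves in a shared way. Within the Pgam ASO label, replicate 1 was highest and replicate 3 lowest for Il4, Il13, Il5, Il9, Gata3 and Pparg. Areg had this order in CPM too, but replicates 2 and 3 tied at 5 counts and differed only by library scaling. Foxp3, Nfil3 and Il17rb had the opposite arrangement, with replicate 3 highest and replicate 1 lowest. Over the 14936 tested genes, the first arrangement was found in 24.7% and the opposite one also in 24.7%. Within the scramble label, replicate 2 was lowest for Il4, Il13, Il5, Il9, Pparg, Nfil3 and Il17rb, an arrangement found in 40.6% of tested genes. For Il17rb, replicates 2 and 3 tied at 24 counts and differed only by library scaling. For Gata3 and for Foxp3 scramble replicate 2 was highest of its label. In each label the library with the most Foxp3 RNA was thus the one with the least RNA of Il4, Il13, Il5, Il9 and Pparg. With 3 libraries a label, this was not tested.

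The cluster on chromosome 11 offers a view that the choice of the genes did not use, namely the genes around them. Coordinates are those of GRCm38: Il4 lies at chr11:53602982-53618669 on the minus strand, Il13 at chr11:53631324-53634702 on the minus strand and Il5 at chr11:53720794-53725106 on the plus strand. Between Il13 and Il5 lie the pseudogene Rps2-ps4, with at most 2 counts in a library, and Rad50. In edgeR's quasi-likelihood test over all 14936 genes, 2565 genes passed an adjusted p of 0.05 (17.2%), 1199 of them higher with Pgam ASO (8.03%) and 1366 lower (9.15%). These counts depend on single libraries, with 391 genes called without Pgam ASO replicate 2, 620 without scramble replicate 1 and 3484 without scramble replicate 3. Within 500 kb of the cluster the annotation has 42 other genes, of which 15 were tested, and 5 were higher and 2 lower.

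Rad50, a DNA repair gene whose 3′ part carries the control region of the cytokine cluster, had 94.4, 79.7 and 96.3 CPM with scramble and 134, 131 and 118 CPM with Pgam ASO. It was higher in all 3 Pgam ASO libraries than in any scramble library (log2 fold change 0.50 ± 0.10 SE, edgeR adjusted p 0.0108, and 0.0707 without Pgam ASO replicate 2). Kif3a, a kinesin motor gene that ends 1.01 kb from the end of Il4 and is read in the opposite direction, had 15.8, 18.9 and 15.4 CPM and 29.1, 25.3 and 24.6 CPM under the same labels. It too was higher (log2 fold change 0.66 ± 0.13 SE, edgeR adjusted p 0.0112, and 0.0612 without scramble replicate 1 or 0.0585 without Pgam ASO replicate 2). Sept8, a septin gene beyond Kif3a, had 25.3, 21.5 and 26.6 CPM with scramble and 46.2, 37.6 and 40.8 CPM with Pgam ASO. Its call held whichever library was left out (log2 fold change 0.76 ± 0.12 SE, edgeR adjusted p 0.00478, highest 0.028).

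On the far side of Il5 the next tested gene, Irf1, which encodes an interferon-induced factor, went the other way. Irf1 had 44.1, 47.3 and 32 CPM with scramble and 24.1, 24.1 and 25.8 CPM with Pgam ASO (log2 fold change -0.74 ± 0.14 SE, edgeR adjusted p 0.0111). Its adjusted p was 0.0548 without scramble replicate 1 and 0.0718 without Pgam ASO replicate 2. The 3 tested genes nearest to the cytokine genes on the Il4 side and between them, Sept8, Kif3a and Rad50, were thus higher by under 1 on the log2 scale, and the nearest on the Il5 side was lower. Further out on the Il5 side, 522 and 540.0 kb from Il5 and so beyond the window of 500 kb, lie the cytokine genes Csf2 (chr11:54247271-54249667) and Il3 (chr11:54265303-54267277), which were higher (log2 fold change 3.09 ± 0.31 and 3.12 ± 0.43 SE). The other calls within the window were Zcchc10 (log2 fold change 0.58 ± 0.14 SE, edgeR adjusted p 0.0241), Fstl4 (1.34 ± 0.35 SE, 0.0295) and Gm12216 (-2.14 ± 0.60 SE, 0.0369), and each was lost without Pgam ASO replicate 2 (adjusted p 0.107, 0.117 and 0.149). Zcchc10 also lost its call without scramble replicate 1 or Pgam ASO replicate 1, and Fstl4 and Gm12216 kept theirs only without scramble replicate 3.

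**Figure D4:**
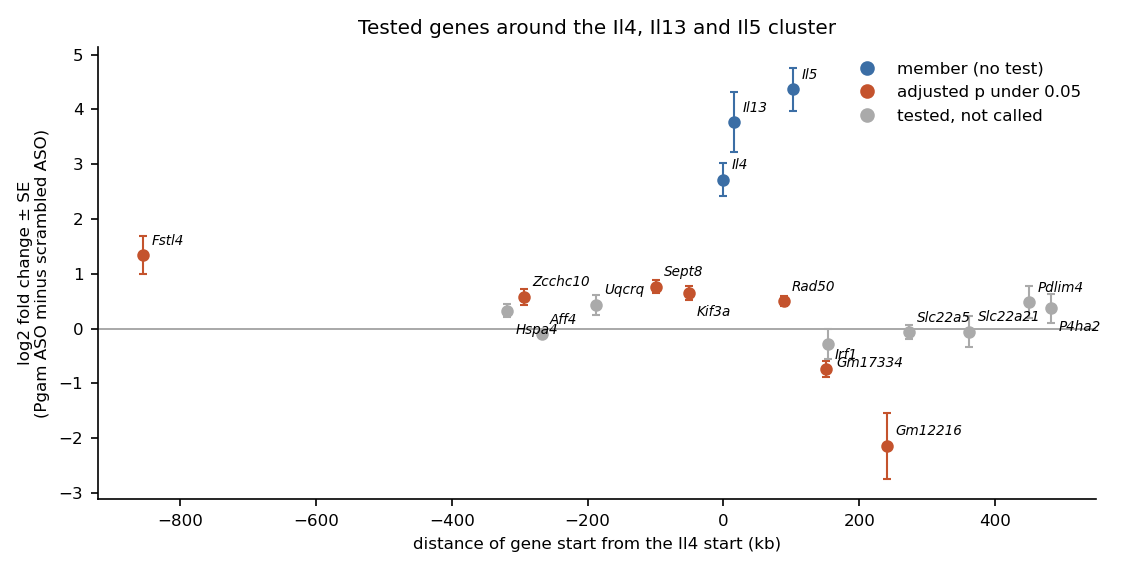
Log2 fold change ± SE (Pgam ASO minus scramble) of tested genes around the Il4, Il13 and Il5 cluster against the distance of each gene's start from that of Il4 in kb. Il4, Il13 and Il5 stand at 2.72 to 4.37 and have no test, Sept8, Kif3a and Rad50 at 0.50 to 0.76, and Irf1 at -0.74.

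Around Il9, at chr13:56479277-56482246, 22 other genes lie within 500 kb and 5 were tested. In edgeR 0 of the 5 passed an adjusted p of 0.05, with 2 (Gm47071 and Smad5) under an unadjusted p of 0.05, 1 (Gm47071) called by DESeq2 and 0 by limma-voom. The nearest on each side were Tifab, 300.0 kb away at lower coordinates (log2 fold change 0.06 ± 0.43 SE, edgeR adjusted p 0.936), and Fbxl21, 40.2 kb away at higher coordinates (-0.11 ± 0.44 SE, 0.882). Smad5 lies beyond Fbxl21, with its start 220.8 kb from that of Il9 (log2 fold change -0.39 ± 0.15 SE, edgeR adjusted p 0.0884). Of the tested genes nearest to Gata3, Pparg, Nfil3, Il17rb and Areg, 9 were used here, and 0 of these 9 were called by edgeR, DESeq2 or limma-voom, with 3 (Auh, Sptlc1 and Chdh) at an unadjusted edgeR p under 0.05. The 9 were Gm13217 and Taf3 for Gata3, Tamm41 for Pparg, Auh and Sptlc1 for Nfil3, Actr8 and Chdh for Il17rb, and Mthfd2l and Rchy1 for Areg. The nearest tested gene to Pparg at higher coordinates was left out and is not reported here, so the count of 0 does not cover it. Among them Chdh, which lies 0.127 kb from Il17rb, had the largest log2 fold change, 1.53 ± 0.55 SE (edgeR adjusted p 0.0790).

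Over the 6 libraries, the genes most like the cytokines were sought among 12044 tested genes of sufficient level by the root mean square difference of centred log2 CPM. For Il4 they were Abi3bp at 0.172, Lif at 0.253 and Csf2 at 0.257. For Il13 they were Il24 at 0.257, Il2 at 0.350 and Il3 at 0.359. For Il5 they were Il2 at 0.414, Csf2 at 0.519 and Lilr4b at 0.573, and for Il9 they were Il21 at 0.287, Batf3 at 0.291 and Myh11 at 0.291. The likeness covers the difference between the labels as well as that within them.

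Lists of pathway genes, none of which holds any of the 9 genes, give the setting. Over all lists, 22 of 143 tested genes were higher and 32 lower (37.8% called, where it was 17.2% of all tested genes, 8.03% higher and 9.15% lower), with a median log2 fold change of -0.08 against -0.01 for all tested genes. The lists too were chosen with earlier results known, so nothing is read from the share called. Of these 54 calls, and the 7 among the neighbours of the cytokine genes, 60 different genes in all, 14 held whichever of the 6 libraries was left out.

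Other T cell cytokines had 7 of 19 tested genes higher and 1 lower, with a median log2 fold change of 0.48. Il2, the T cell growth factor that was also added to the medium as protein, had 2.42, 0.864 and 1.30 CPM with scramble and 30.5, 17.3 and 12.1 CPM with Pgam ASO (log2 fold change 3.70 ± 0.46 SE, edgeR adjusted p 0.00335). Il3, a growth factor of mast cells and basophils, had 6.42, 2.27 and 5.27 CPM and 57.3, 37.0 and 26.3 CPM under the same labels (3.12 ± 0.43 SE, edgeR adjusted p 0.00786). Il24, of the IL-10 family, had 10.2, 4.05 and 15.5 CPM and 138, 85.6 and 58.9 CPM (3.26 ± 0.55 SE, edgeR adjusted p 0.0187). The calls of Il2 and Il3 held whichever library was left out, whereas the adjusted p of Il24 was 0.0792, 0.0571 and 0.0639 without scramble replicate 1, scramble replicate 2 and Pgam ASO replicate 2. Csf2 (3.09 ± 0.31 SE, edgeR adjusted p 0.00139), Lif (2.25 ± 0.25 SE, 0.00287) and Il21 (2.53 ± 0.50 SE, 0.0157), named above for likeness, were among the higher genes, and Il21 lost its call without scramble replicate 1 (0.0598) or Pgam ASO replicate 2 (0.0632). The remaining higher gene was Il17a, with 2.93, 3.30 and 2.91 CPM with scramble and 19.6, 10.3 and 7.28 CPM with Pgam ASO. Its log2 fold change was 2.02 ± 0.34 SE (edgeR adjusted p 0.0073), and its call held whichever library was left out. Il16 was the lower gene (log2 fold change -0.85 ± 0.19 SE, edgeR adjusted p 0.0211), with 0.0568 and 0.0949 without Pgam ASO replicates 1 and 2. In Il2, 14.97% of 31-base stretches occur in transcripts of other genes, mostly Ntan1, which had 4140 counts over all libraries. In Csf2 it was 9.22%, mostly Gm12223, which had 14 counts.

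**Figure D5:**
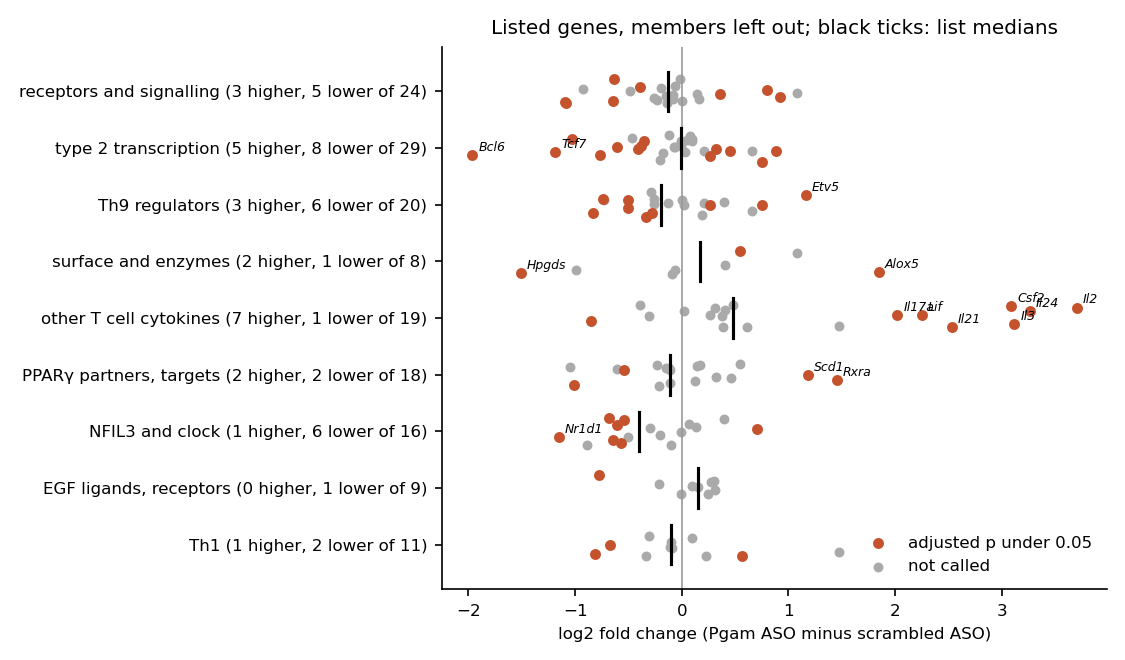
Log2 fold change (Pgam ASO minus scramble) of the tested genes of each pathway list, with calls at an edgeR adjusted p under 0.05 in colour and a tick at each list's median. The cytokine list reaches furthest to the right, with a median of 0.48 and Il2 at 3.70.

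Receptors and signalling genes had 3 of 24 tested genes higher and 5 lower, at a median of -0.13. Il4ra, the receptor chain shared by IL-4 and IL-13, had 398, 341 and 406 CPM with scramble and 793, 743 and 631 CPM with Pgam ASO. It was higher by a log2 fold change of 0.92 ± 0.11 SE (edgeR adjusted p 0.0012), a call that held whichever library was left out. Il2rg, its partner for IL-4, had 300.0, 318 and 293 CPM and 273, 262 and 263 CPM (-0.19 ± 0.08 SE, edgeR adjusted p 0.108). Stat6, the factor that IL-4 activates, had 268, 256 and 266 CPM and 248, 236 and 241 CPM (-0.12 ± 0.08 SE, edgeR adjusted p 0.268). Neither passed the test. Il13ra1 stayed at or below 0.193 CPM and Il13ra2 and Il25 had 0 counts, which allows up to 0.162 to 0.192 CPM by library (3 counts).

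The receptor of IL-9, Il9r, had 2.53, 3.78 and 2.42 CPM with scramble and 1.43, 0.898 and 2.25 CPM with Pgam ASO (-0.93 ± 0.37 SE, edgeR adjusted p 0.103). The IL-33 receptor of type 2 cells, Il1rl1, had 2.03, 0.648 and 2.35 CPM and 3.85, 3.91 and 2.84 CPM (1.08 ± 0.41 SE, edgeR adjusted p 0.0893). Both were low and did not pass the test, although neither overlapped between labels. Il17ra, the partner of Il17rb in the IL-25 receptor, had 114, 136 and 78.5 CPM and 62.9, 67.4 and 80.1 CPM, with overlap (-0.64 ± 0.19 SE, edgeR adjusted p 0.0472). Its call was lost without scramble replicate 1 or 2 or Pgam ASO replicate 1 or 2 (adjusted p 0.126, 0.123, 0.135 and 0.150). Of the feedback inhibitors of cytokine signalling, Socs1 was higher (0.80 ± 0.16 SE, edgeR adjusted p 0.0147, and 0.0674 without Pgam ASO replicate 2) and Socs5 lower (-1.09 ± 0.16 SE, 0.0034, at most 0.0326 with a library left out). Socs3 was lower as well (-0.63 ± 0.17 SE, edgeR adjusted p 0.0375), a call that held in 2 of 6 refits without a library. Cish was higher by 0.36 ± 0.10 SE (edgeR adjusted p 0.033), a call that held in 1 of 6 refits without a library, and Il7r lower (-1.09 ± 0.19 SE, 0.0115, and 0.0592 without Pgam ASO replicate 2).

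Factors of type 2 transcription had 5 of 29 tested genes higher and 8 lower, at a median of -0.01. Batf, an AP-1 family partner of IRF4, had 36.8, 30.8 and 42.2 CPM with scramble and 72.8, 59.3 and 52.9 CPM with Pgam ASO (log2 fold change 0.75 ± 0.14 SE, edgeR adjusted p 0.0108, and 0.0569 without Pgam ASO replicate 2). Irf4 itself had 559, 388 and 613 CPM and 970.1, 834 and 654 CPM (0.66 ± 0.19 SE), and at an edgeR adjusted p of 0.0507 it did not pass. Gfi1, a repressor that favours growth of Th2 cells, had 93.8, 68.4 and 98.9 CPM and 191, 149 and 141 CPM (0.88 ± 0.16 SE, edgeR adjusted p 0.00887). Maf, an activator of Il4, went down, with 54.6, 53.3 and 47.8 CPM and 30.8, 37.9 and 33.7 CPM (-0.61 ± 0.11 SE, edgeR adjusted p 0.00779). The calls of Gfi1 and Maf held whichever library was left out, so factors known to promote type 2 responses stood on both sides of 0. Bcl6, a repressor of Th2 genes, had 14.4, 19.8 and 7.93 CPM and 2.24, 2.76 and 5.74 CPM (-1.97 ± 0.42 SE, edgeR adjusted p 0.022), and its call was lost in 4 of 6 refits without a library, at up to 0.0949. Tcf7, a factor of naive T cells, was lower (-1.19 ± 0.27 SE, edgeR adjusted p 0.0298) and lost its call in 3 of 6. Sox4, which is induced by TGF-β and restrains GATA3, was also lower (-1.03 ± 0.22 SE, edgeR adjusted p 0.0168, and 0.0792 without scramble replicate 1 or 0.0647 without Pgam ASO replicate 2). In Sox4, 54.7% of 31-base stretches also occur in other genes, nearly all in Gm26735, which has no row in the count table. Rbpj, the nuclear partner of Notch, was higher (0.46 ± 0.13 SE, edgeR adjusted p 0.0407) and lost its call in 4 of 6. Besides Foxp3, Il2 and Etv5, such shares in the pathway genes named here were 38.3% in Ptgdr2, 28.7% in Il2rg, 22.6% in Ifng, 16.6% in Il16, 11.8% in Rbpj and 10.4% in Cish, and under 10% in the rest.

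Regulators of Th9 cells, some of them shared with the preceding list, had 3 of 20 tested genes higher and 6 lower, at a median of -0.19. Etv5, an ETS factor that acts on Il9, had 8.44, 5.13 and 8.43 CPM with scramble and 20.1, 15.6 and 13.5 CPM with Pgam ASO (log2 fold change 1.16 ± 0.22 SE, edgeR adjusted p 0.0108, and 0.0571 without Pgam ASO replicate 2). In Etv5, 30.3% of 31-base stretches also occur in Gm4798, which had 7 counts over all libraries. Foxo1, a factor that sustains naive T cells, had 167, 220.4 and 135 CPM and 93.4, 94.3 and 105 CPM (-0.84 ± 0.16 SE, edgeR adjusted p 0.0114, and 0.0681 without Pgam ASO replicate 2). Tgfbr2, a receptor chain of TGF-β, was lower (-0.51 ± 0.13 SE, edgeR adjusted p 0.0291), a call lost in 4 of 6 refits without a library. Nfatc2 was higher by 0.27 ± 0.08 SE (edgeR adjusted p 0.0443), a call that none of the 6 refits kept. Spi1, which encodes the ETS factor PU.1 known for inducing Il9, had 0.169, 0.486 and 0.248 CPM and 0.497, 0.513 and 0.473 CPM and was too low to be tested.

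Partners and targets of PPARγ had 2 of 18 tested genes higher and 2 lower, at a median of -0.11. Rxra, its binding partner, had 31.5, 29.6 and 30.2 CPM with scramble and 105, 84.2 and 60.4 CPM with Pgam ASO (log2 fold change 1.45 ± 0.17 SE, edgeR adjusted p 0.00173). Scd1, a desaturase of fatty acids, had 80.4, 56.0 and 93.2 CPM and 159, 182 and 179.7 CPM (1.18 ± 0.16 SE, edgeR adjusted p 0.00335). Both calls held whichever library was left out. In all, 14 of the 18 tested genes of the list were not called. Ncoa2, a coactivator, was lower (-0.54 ± 0.10 SE, edgeR adjusted p 0.0107, and 0.0547 without scramble replicate 1 or 0.0726 without Pgam ASO replicate 2), as was Abca1 (-1.01 ± 0.30 SE, 0.0457), a call kept in 1 of 6 refits.

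Clock genes around Nfil3 had 1 of 16 tested genes higher and 6 lower, at a median of -0.40, the lowest of the lists. Rora, an activator of clock genes, had 100.4, 97.3 and 96.7 CPM with scramble and 52.9, 63.7 and 72.2 CPM with Pgam ASO (log2 fold change -0.64 ± 0.11 SE, edgeR adjusted p 0.00713, and 0.0506 without Pgam ASO replicate 2). Tef, a relative of NFIL3 that binds the same sites as an activator, had 28.2, 41.0 and 25.1 CPM and 16.8, 19.8 and 22.3 CPM (-0.68 ± 0.18 SE, edgeR adjusted p 0.0346). Nr1d1, a repressor of Nfil3, had 3.54, 6.05 and 3.53 CPM and 1.74, 1.48 and 2.66 CPM (-1.16 ± 0.33 SE, edgeR adjusted p 0.0384). The other lower genes were Arntl (-0.61 ± 0.10 SE, edgeR adjusted p 0.006), Per1 (-0.54 ± 0.10 SE, 0.00952) and Npas2 (-0.57 ± 0.11 SE, 0.0117). Arntl kept its call in 6 of 6 refits without a library, Per1 in 5 and Npas2 in 4. Tef and Nr1d1 lost their calls in 4 of 6 such refits. The higher gene was Per2 (0.71 ± 0.17 SE, edgeR adjusted p 0.0232), which lost its call in 4 of 6 as well.

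Surface molecules and enzymes of type 2 cells had 2 of 8 tested genes higher and 1 lower, at a median of 0.17. Cysltr1, a leukotriene receptor, had 35.9, 28.8 and 36.8 CPM with scramble and 46.6, 52.5 and 48.8 CPM with Pgam ASO (log2 fold change 0.54 ± 0.11 SE, edgeR adjusted p 0.0148, and 0.0503 without scramble replicate 1 or 0.0877 without Pgam ASO replicate 2). Alox5, of leukotriene synthesis, was higher at under 2 CPM (1.84 ± 0.42 SE, edgeR adjusted p 0.0202, lost in 3 of 6 refits). Hpgds, of prostaglandin D2 synthesis, was lower (-1.51 ± 0.43 SE, 0.0399, lost in 4 of 6). EGF ligands, receptors and shedding enzymes, the setting of Areg, had 0 of 9 tested genes higher and 1 lower in edgeR, at a median of 0.15; at an unadjusted p of 0.05, as by DESeq2 or limma-voom, 0 were higher too. The lower one was Erbb3, an EGF family receptor (-0.77 ± 0.17 SE, edgeR adjusted p 0.0163, lost in 3 of 6), while Egfr, the receptor of amphiregulin, had 2.14, 0.972 and 1.24 CPM and 1.99, 1.67 and 1.72 CPM (edgeR adjusted p 0.583).

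The Th1 list, of the lineage that opposes Th2, had 1 of 11 tested genes higher and 2 lower, at a median of -0.10. Tbx21, which encodes the Th1 factor T-bet, had 4.67, 2.86 and 4.58 CPM with scramble and 7.70, 3.66 and 2.84 CPM with Pgam ASO, with overlap (edgeR adjusted p 0.694). Ifng, which encodes the cytokine of Th1 cells, had 7.54, 3.02 and 6.94 CPM and 27.0, 13.9 and 7.69 CPM without overlap, and it did not pass the test (1.47 ± 0.52 SE, edgeR adjusted p 0.0953). Eomes, a relative of T-bet, was lower (-0.82 ± 0.19 SE, edgeR adjusted p 0.0214) and so was the chemokine receptor Cxcr3 (-0.67 ± 0.15 SE, 0.0199), each losing its call in 3 of 6 refits. Il12rb1, a receptor chain of IL-12, was higher (0.56 ± 0.15 SE, edgeR adjusted p 0.0363) and lost its call in 4 of 6.

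Markers of the labelled cell type were high, led by Cd4 with 775, 804 and 732 CPM with scramble and 650.2, 651 and 697 CPM with Pgam ASO. The 8 T cell markers summed to 3130, 3370 and 2930 CPM with scramble and 2520, 2550 and 2670 CPM with Pgam ASO. Of the 8, 7 were lower in every Pgam ASO library, 3 of them (Cd28, Trac and Cd5) also in edgeR's test, which called 9.15% of all tested genes lower. The share of all tested genes that were lower in every Pgam ASO library was not counted, so nothing is read from the 7. The 13 markers of mast cells and basophils summed to 12.2, 12.4 and 11.8 CPM with scramble and 13.4, 13 and 13.2 CPM with Pgam ASO, of which 5 were tested, 1 was higher (Gata2) and 1 lower (Kit). Their most abundant gene by mean was Gata1, and the mast cell proteases Tpsab1 and Mcpt4 had 0 counts in every library. The sum joins genes that went opposite ways. Kit had 5.29, 5.40 and 6.01 CPM with scramble and 0.932, 1.48 and 2.78 CPM with Pgam ASO, without overlap. Against 19.6% of all tested genes, 5 of the 13 were higher in every Pgam ASO library than in any scramble library. These were the basophil protease Mcpt8 (0, 0.108 and 0.186 CPM with scramble and 0.994, 0.706 and 0.296 CPM with Pgam ASO), Cpa3 (0.957, 1.51 and 0.744 CPM and 2.55, 2.25 and 2.13 CPM, edgeR adjusted p 0.0526), Fcer1a (0, 0.108 and 0 CPM and 0.248, 0.513 and 0.355 CPM), Gata2 (0.563, 0.432 and 0.558 CPM and 2.61, 1.09 and 1.01 CPM, edgeR adjusted p 0.0469) and Gata1 (edgeR adjusted p 0.295). The other 7 overlapped between the labels. Mcpt8 and Fcer1a were at or below the level of 3 counts (0.162 to 0.186 CPM) in every scramble library. Refits without a library are not given here for the calls among the cell type markers.

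The 9 eosinophil markers summed to 0.394, 0.486 and 0.186 CPM with scramble and 0.683, 0.962 and 0.828 CPM with Pgam ASO, so every Pgam ASO library was higher. None was tested, and Prg3, Ear1 and Ear6 were at 0 everywhere. Il5ra, the most abundant by mean, had 0, 0.108 and 0 CPM with scramble and 0.31, 0.449 and 0.296 CPM with Pgam ASO, and Epx also did not overlap. Markers of innate type 2 lymphocytes that T cells share summed to 371, 462 and 337 CPM with scramble and 165, 203 and 241 CPM with Pgam ASO, mostly Il7r, with 2 of 3 tested genes lower (Il7r and Rora). The third, Il1rl1, was higher in every Pgam ASO library than in any scramble library and was not called, with its values given above. In that list Klrg1 stayed at or below 0.162 CPM and Ptgdr2 at or below 0.311 CPM. The 5 markers of NKT and γδ T cells summed to 7.09 to 7.83 CPM with scramble and 9.69 to 10.5 CPM with Pgam ASO, with 1 of 4 tested genes higher (Tcrg-C1) and Klrb1c at 0. Here too genes went opposite ways. Trdc, the most abundant by mean, had 3.71, 4.27 and 3.28 CPM with scramble and 2.79, 2.95 and 2.78 CPM with Pgam ASO, lower in every Pgam ASO library but not called (edgeR adjusted p 0.248), whereas Tcrg-C1 (1.91, 1.40 and 1.92 CPM and 3.79, 4.43 and 4.08 CPM, edgeR adjusted p 0.0142) and Sox13 (0.394, 0.756 and 0.805 CPM and 1.68, 1.03 and 1.36 CPM, edgeR adjusted p 0.101) were higher in each of them. The 5 NK markers summed to 12.1 to 15 CPM with scramble and 5.47 to 5.90 CPM with Pgam ASO, led by Prf1, with 1 of 2 tested genes lower (Klrd1), Prf1 lower in every Pgam ASO library and Klra8 at 0.

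The 2 CD8 T cell markers summed to 10.8 to 13.5 CPM with scramble and 10.9 to 15.7 CPM with Pgam ASO, led by Cd8b1, and Cd8a was higher. The 6 B cell markers summed to 329, 458 and 222 CPM with scramble and 85.3, 120 and 150 CPM with Pgam ASO, nearly all of it Ighm, which was the 1 lower gene of the 6 tested. The 8 myeloid markers summed to 5.96, 5.02 and 3.10 CPM with scramble and 7.02, 5.33 and 5.44 CPM with Pgam ASO. Lyz2, the most abundant by mean, had 1.24, 1.35 and 0.867 CPM with scramble and 1.37, 1.48 and 1.6 CPM with Pgam ASO, higher in every Pgam ASO library (edgeR adjusted p 0.481). Of the 8, 4 were tested, with 0 of 4 called in edgeR, DESeq2 or limma-voom and 0 at an unadjusted edgeR p under 0.05. What part cells other than CD4 T cells had in the levels of the cytokine genes was not tested.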

How the data were processed

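Per the labels, reads were assigned with kallisto against GRCm38, and the deposited file holds estimated counts as whole numbers for 56748 Ensembl genes. Genes were named from the gene name table (52073 matched) and placed with GENCODE M21, which may not be the release the authors used. The members and lists were chosen with earlier results of these data known. edgeR 4.0.16 (R 4.3.3) tested Pgam ASO against scramble over the 14936 genes that passed filterByExpr, with TMM scaling, also used for CPM, robust quasi-likelihood fits and Benjamini-Hochberg adjustment at 0.05. SE is the log2 fold change over the root of its F statistic. TPM were computed from the counts and the longest coding transcript; genes without a length, with 1.17% to 1.89% of counts, were left out. The p-values measure spread between libraries, which the study calls biological replicates; the labels do not say whether these were separate mice. Libraries of the same replicate number were no more alike than others, so the fit is unpaired. Tested on simulated data, the fit made more false calls than the nominal share when gene-wise dispersions were simulated, and near that share with the dispersion trend; the trend was tried after the first outcome was seen. Genes named from a list are the called ones with the largest change, at most 3 each way, and some named whatever their result. Ifng, Il13ra1, Il13ra2, Il25, Zcchc10, Fstl4, Gm12216, Smad5, Socs3, Il17a, Arntl, Per1 and Npas2 were chosen after their values were seen. Shared 31-base stretches were counted on GENCODE M21 transcripts.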

Additional observations from a re-analysis of the deposited data

How the results depend on the processing

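The log2 fold changes of the 8 tested members moved by less than the replicate SD under DESeq2, limma-voom, RLE factors, library size alone, no filter, a minimum of 10 counts in every library (7 members, as Il5 then drops out), a replicate block and each left-out library. The count of genes called is less stable. With replicate number as a block in the model (a paired fit), 1235 genes, 33 pathway genes and 5 neighbours of the cytokine genes passed. Leaving out 1 library gave 391 to 3484 genes, 14 to 66 pathway genes and 1 to 9 neighbours, with the lowest counts without Pgam ASO replicate 2, and smaller groups are part of that construction. Without a filter on low counts 11 neighbours of 40 passed. DESeq2, run on the same filtered genes, called 3213 genes and limma-voom 2522. With mean in place of longest transcript length, Gata3 stood above Nfil3 with scramble and Pparg above Il4 with Pgam ASO, and the lead of Il9 over Gata3 with Pgam ASO fell within the larger SD (80 and 76.7 TPM) while that of Gata3 over Nfil3 passed it (76.7 and 37.5 TPM). Depth limits Areg, Il17rb and the scramble level of Il5.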
